A study of Rattus norvegicus with 16 samples.

Results

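The comparison described here is that of dorsal root ganglia (DRG) from adult rats whose nerve was cut with DRG from adult rats whose nerve was only exposed. It was chosen from the experimental group and surgery given with each sample, and takes 6 of the 16 arrays of the series, 3 of spared nerve injury (SNI) and 3 of sham. Both groups were male Sprague-Dawley rats aged 2 months at surgery, and mRNA was measured on Affymetrix rat expression arrays 7 days later. In SNI the common peroneal and tibial branches of the sciatic nerve were ligated and cut under halothane, and the sural branch was spared. The study's methods also describe a tracer, Fluorogold, injected into the cut nerve ends, and the labels do not say whether the array animals received it, so that any effect of it cannot be told apart from that of SNI. In sham animals the same nerves were exposed under the same anaesthesia and not cut. The L4 and L5 DRG on the operated side were taken in both groups, and each array held the RNA of 6 DRG pooled from 3 animals, so that all errors below are between pools and not between single animals. Because the sural branch is spared and other nerves also enter these ganglia, every SNI pool held the RNA of neurons with cut and with uncut axons. The other 10 arrays entered the fit for its estimate of the spread: 3 of adult contralateral DRG, 3 of young sham, 2 of young SNI and 2 of young contralateral DRG, the young rats being 10 days old at surgery. The young SNI and young sham arrays also gave a response to set against that of the adults.

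The DRG holds the cell bodies of sensory neurons, which send 1 axon branch to the periphery and another to the spinal cord. Each cell body is wrapped by satellite glia, its axons are ensheathed by Schwann cells, and resident macrophages lie between them. After its peripheral axon is cut, a sensory neuron is known to switch on transcription factors, growth proteins and neuropeptides that it holds at low levels otherwise, and macrophages are known to gather around it.

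The arrays carried the defining transcripts of the tissue in both groups. The log2 value of Snap25, a synaptic membrane protein of neurons, lay between 13.75 and 14.48 over the 6 arrays, and that of the large neurofilament Nefh between 14.68 and 14.90. Pmp22, a protein of peripheral myelin, lay between 14.55 and 15.34, and Fabp7, a fatty acid binding protein of satellite glia, between 11.66 and 12.44. Kcnj10, the potassium channel also used as a satellite glia marker, stayed between 2.17 and 2.36, just under the lower quartile of the arrays. Of 5 markers of oligodendrocytes and central neurons, Mog, Slc12a5 and Slc32a1 were at 2.41 or less in all 6. Mobp was 3.78 in sham 3 and 2.90 or less in the others, and Gad1 was 5.20 in SNI 1 and 2.76 or less in the others. Genes of skeletal muscle were high in some pools and low in others. Ckm, the creatine kinase of muscle, read 10.32, 1.99 and 12.23 in the 3 sham pools and 7.27, 6.72 and 8.29 in the SNI pools. The log2 values correlated over all Affy_IDs (the array's probe sets) with r of 0.986 to 0.9896 among the sham arrays and 0.9914 to 0.9933 among the SNI arrays. Between the groups r ran from 0.9798 (sham 1 with SNI 3) to 0.9914 (sham 2 with SNI 1). Sham 2 and sham 3 were thus closer to SNI 1 (0.9914 and 0.9906) than any 2 sham arrays were to each other.

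Of 31042 Affy_IDs tested by limma, 0.48% passed an adjusted p of 0.05: 138 were higher in SNI (0.445%) and 11 were lower (0.0354%), by a log2 difference of SNI minus sham. Where the symbol was that of 1 gene, these were 90 genes higher and 8 lower. At an unadjusted p of 0.05 the split was nearer even, with 1266 Affy_IDs higher (4.08%) and 1010 lower (3.25%). The same held where all 3 arrays of the SNI group lay on one side of all 3 sham arrays, which was so for 1296 Affy_IDs above (4.17%) and 1445 below (4.65%). The number of calls varied with the pools. It was 38 without sham 1, 35 without sham 2, 118 without sham 3, 288 without SNI 1, 40 without SNI 2 and 76 without SNI 3. Of the 149, 36 were still called without sham 1, 30 without sham 2, 36 without SNI 2, 58 without SNI 3, 78 without sham 3 and 125 without SNI 1. A set of 66 called Affy_IDs was followed further: those named by rule, and others with a symbol of 1 gene and a difference above 2. Of these, 18 kept the call whichever pool was left out. The other 48 lost it without at least 1 pool, most often sham 2 (45), sham 1 (43) or SNI 2 (42). All kept their direction. The 6 arrays alone gave 94 calls, with 57 of the 149 among them. The count was 244 (0.786%) from the 9 adult arrays, of which 219 were higher (0.705%) and 25 lower (0.0805%).

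The bulk of the array hardly moved. The median log2 difference over all Affy_IDs was -0.02 with quartiles of -0.12 and 0.07, and 34.28% of Affy_IDs were above 0. With each array centred on its own median these became 0.03 and 61.79%, so the direction of so small a shift depends on the scaling. The share above 0 climbed with the level of the transcript: it was 13.98% where the mean log2 value was under 3, 41.33% between 5 and 7, and 66.73% above 11. The tails were uneven. A log2 difference of more than 1 was seen upward in 441 Affy_IDs and downward in 277, and one of more than 3 upward in 47 and downward in 12. The upward tail was also the tighter between pools. Of the 441, the groups were apart in 352 (79.8%) and 107 were called, and the median range of the 3 sham values was 0.72. Of the 277, the groups were apart in 147 (53.1%) and 5 were called, and the sham values spanned a median of 1.42. Over all Affy_IDs that span was 0.27 in either group. Single sham pools stood apart in both tails. Sham 1 was the lowest sham pool by more than 1 unit in 61 of the 441, and sham 2 was so in 82 of the 277. Over all Affy_IDs this was so for sham 1 in 662, sham 2 in 331 and sham 3 in 72.

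**Figure D1:**
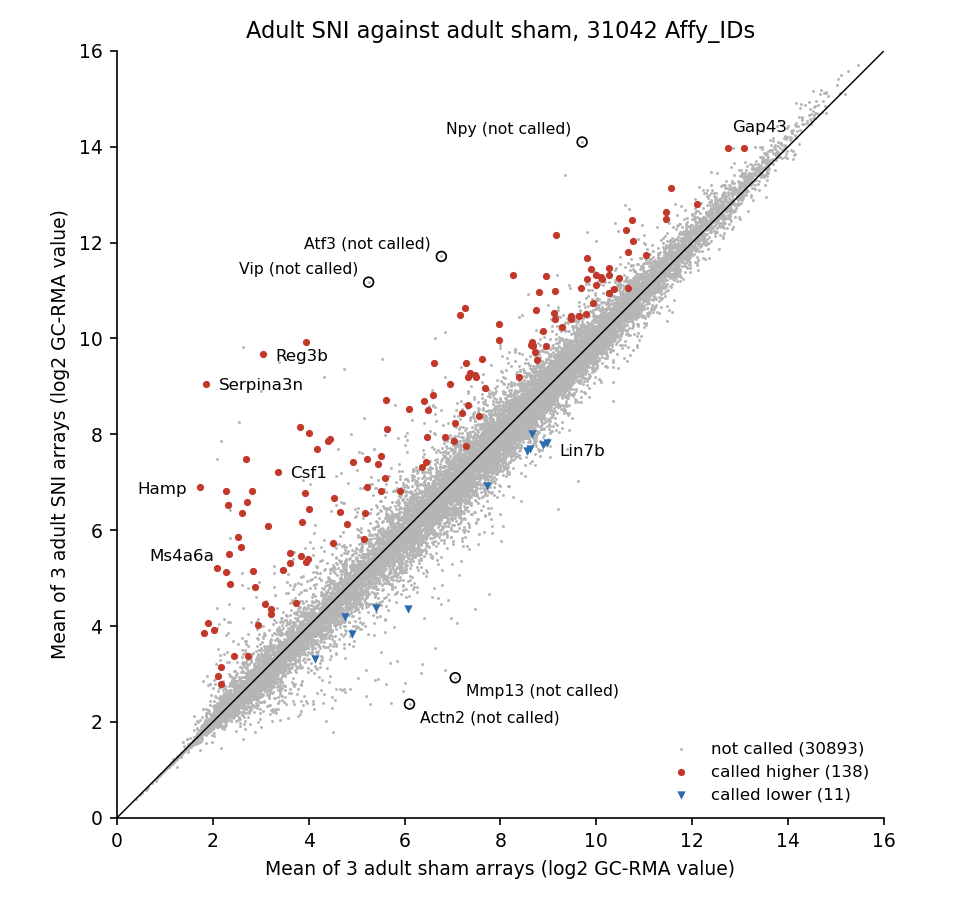
Mean log2 value of the 3 adult SNI arrays (vertical axis) against that of the 3 adult sham arrays (horizontal axis) for each of 31042 Affy_IDs, with the 138 called higher and the 11 called lower in colour. Most of the calls lie above the diagonal, and several of the largest start from the lowest sham levels.

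The calls higher in SNI had a median log2 difference of 1.60, and 50 of the 138 exceeded 2. For 15 of them the 3 sham values were all below the lower quartile of their array, so that the size of the difference depends on the background of the array. The 11 calls lower in SNI had a median of -0.94, and each group's values were apart in all 149. When genes were represented by their brightest Affy_ID, 82 of 14217 were called higher (0.577%) and 7 lower (0.0492%). Of the called genes 33 had several Affy_IDs, and 12 had 2 or more that were called. Called genes had 44 Affy_IDs without a call. Of these 32 had the sign of the call, 25 of them with a difference over 0.5. Among genes named below, Gap43, Ecel1, Gch1, Tnfaip6, Ms4a6a, Cebpa, Sema6a, Hapln4, Kcnj11, Crem, Csf1 and Ypel1 each had an Affy_ID that differed by only -0.17 to 0.16.

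The largest rise was that of Serpina3n, a secreted inhibitor of serine proteases made in inflammation. Its log2 values were 1.82, 1.89 and 1.86 in sham and 8.50, 9.63 and 9.02 in SNI, a difference of 7.19 with an SE of 0.20 (limma, adjusted p = 1.63e-08). Its 3 sham values were below the lower quartile of their arrays and its SNI values well above it. Serpinb2, the intracellular inhibitor of plasminogen activators, read 2.29, 2.37 and 2.32 in sham and 7.16, 6.90 and 5.52 in SNI. The difference was 4.20 (SE 0.31, adjusted p = 0.000241), with SNI 3 the lowest SNI pool and still over 3 units above sham. Both calls were kept whichever of the 6 arrays was left out, and with the 6 arrays alone Serpina3n passed (adjusted p = 0.00305) and Serpinb2 did not (adjusted p = 0.0562). Over the 16 serpins measured 2 were called and the median difference was 0.03, against -0.01 over all genes.

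Several other large rises were of secreted proteins. Reg3b, a C-type lectin of the regenerating family, read 2.24, 4.10 and 2.77 in sham and 9.09, 10.02 and 9.89 in SNI, 6.63 higher (SE 0.92, adjusted p = 0.0133). Tslp, a cytokine best known from epithelia, read 3.60, 4.29 and 3.93 against 9.28, 10.22 and 10.25, 5.98 higher (SE 0.97, adjusted p = 0.0244). Hamp, which encodes the iron hormone hepcidin, read 1.70, 1.77 and 1.74 against 5.97, 8.13 and 6.58, 5.16 higher (SE 0.44, adjusted p = 0.000838). None of these 3 genes overlapped between the groups, and the distance between the groups was larger than the spread within either. The call of Hamp was kept whichever array was left out but not with the 6 arrays alone (adjusted p = 0.0589), while the adjusted p of Reg3b reached 0.0698 without SNI 2 or sham 1 and that of Tslp 0.106. Csf1, the growth factor of macrophages, read 3.43, 3.47 and 3.17 in sham and 6.91, 7.56 and 7.18 in SNI at 1 of its Affy_IDs, 3.86 higher (SE 0.54, adjusted p = 0.0135). It lost the call without sham 1, sham 2 or SNI 2 (adjusted p up to 0.0698). Its brightest Affy_ID overlapped between the groups, at 7.67, 7.28 and 6.04 against 7.99, 7.28 and 8.50, so that the size for this gene depends on the probe set.

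Other large rises were of proteins that stay with the cell. Ankrd1, an ankyrin repeat protein first known from heart muscle, read 2.29, 2.25 and 2.29 in sham and 6.23, 7.10 and 7.10 in SNI, 4.53 higher (SE 0.57, adjusted p = 0.00816). A second, brighter Affy_ID of Ankrd1 differed by 5.73 with an adjusted p of 0.06 in the 16-array fit. Pde6b, a catalytic subunit of a phosphodiesterase for cyclic GMP, read 2.88, 2.79 and 2.41 in sham and 7.54, 7.45 and 7.44 in SNI, 4.78 higher (SE 0.82, adjusted p = 0.029). Its SNI pools lay within 0.10 of each other. Smagp, a small membrane glycoprotein, differed by 4.03, Pvr, a nectin-like adhesion molecule, by 3.47, and Sema6a, a membrane-bound semaphorin, by 3.47, with adjusted p of 0.0271, 0.0188 and 0.0211. The call of Pde6b was lost whichever array was left out (adjusted p up to 0.12), that of Smagp in all cases but SNI 1 (up to 0.131) and with the 6 arrays alone (0.106), and those of Pvr and Sema6a without sham 1, sham 2, SNI 2 or SNI 3 (up to 0.0948).

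**Figure D2:**
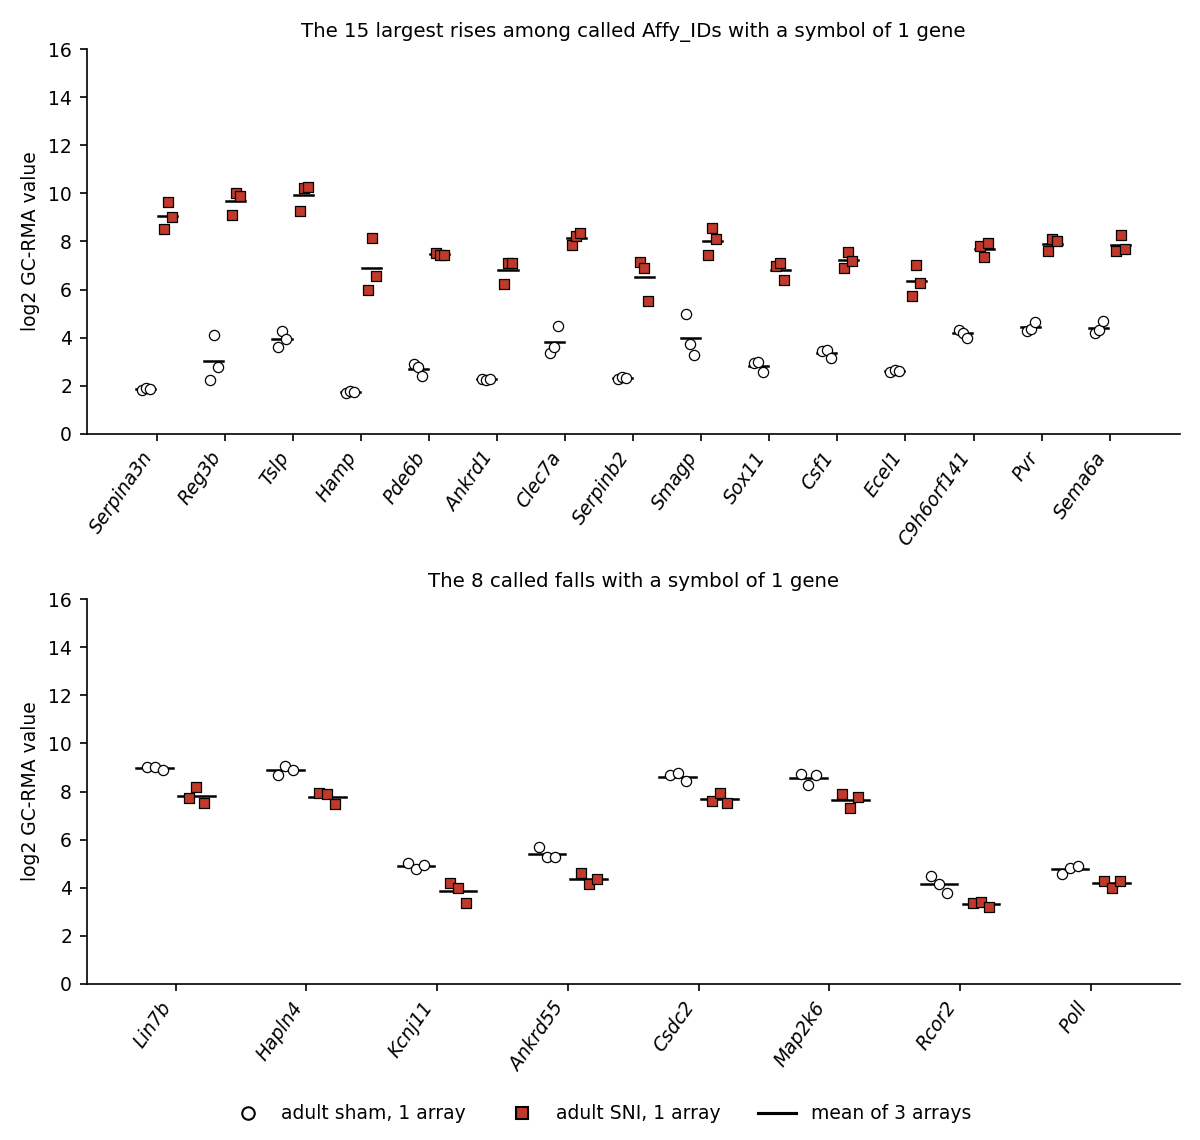
Log2 value in each of the 3 sham and the 3 SNI arrays (points) for the 15 largest rises (top) and the 8 called falls (bottom), with bars for the group means. The groups are apart for every gene shown, by several log2 units for the rises and by less than 1 unit for the falls.

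The genes called lower in SNI moved less, by log2 differences of -0.57 to -1.16. Lin7b, a scaffold protein of synapses and cell junctions, read 9.0, 9.02 and 8.91 in sham and 7.75, 8.17 and 7.53 in SNI, which is -1.16 (SE 0.20, adjusted p = 0.0272). Hapln4, a link protein of the matrix around neurons, read 8.67, 9.05 and 8.91 against 7.93, 7.91 and 7.46, a difference of -1.11 (SE 0.18, adjusted p = 0.0244). Kcnj11, the pore of the ATP-sensitive potassium channel, read 5.01, 4.77 and 4.94 against 4.20, 3.98 and 3.35, a difference of -1.06 (SE 0.17, adjusted p = 0.0236). In all 3 genes each SNI pool was below each sham pool. The other 5 were Ankrd55 at -1.04, the RNA-binding protein Csdc2 at -0.94, Map2k6, the kinase that activates p38, at -0.90, Rcor2, a partner of the repressor REST, at -0.81, and Poll, a DNA repair polymerase, at -0.57, with adjusted p of 0.0179 to 0.0281. These calls rested on the set of arrays more than the rises did. Every one of the 8 was lost when at least 3 of the arrays were left out in turn, none passed with the 6 arrays alone (adjusted p of 0.148 to 0.387), and Hapln4 and Ankrd55 were the ones that passed with the 9 adult arrays (adjusted p = 0.022 and 0.0496).

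Among neuropeptides known to be induced when axons are cut, 3 of the 14 measured were called higher and none lower, with a median difference of 1.84 against -0.01 over all genes. Vgf, the precursor of several secreted peptides, read 8.76, 8.92 and 8.73 in sham and 10.74, 11.20 and 10.97 in SNI, 2.17 higher (SE 0.28, adjusted p = 0.00816). Ucn, the stress peptide urocortin, read 1.87, 1.94 and 1.92 against 3.94, 3.92 and 4.32, 2.15 higher (SE 0.26, adjusted p = 0.00721). Adcyap1, the precursor of PACAP, a peptide that raises cyclic AMP in its target cells, read 9.43, 9.13 and 8.87 against 10.91, 11.02 and 11.01, 1.84 higher (SE 0.18, adjusted p = 0.00183). The spread within each group was under 0.60 for all 3, and none of these calls was lost when an array was left out. Crem, a transcription factor of the cyclic AMP response element, was itself called higher at 3 of its Affy_IDs. The brightest read 9.54, 9.32 and 9.58 in sham and 10.54, 10.29 and 10.40 in SNI, a difference of 0.93 (SE 0.15, adjusted p = 0.0238), which did not pass without sham 1, sham 2, SNI 2 or SNI 3 (adjusted p up to 0.107) or with the 6 arrays alone (adjusted p = 0.0629).

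Because members that moved together can be read beside their promoters, the 250 bases before the start of 4 of these genes are given below from RefSeq (GRCr8), 5′ to 3′ on the strand of the gene. Vgf and Ucn are shown for the palindromic cyclic AMP response element TGACGTCA, which Crem binds. Hamp and Pde6b, of the largest rises, are shown for the AP-1 element, TGACTCA or on the other strand TGAGTCA. It is a site of dimers that hold a Jun family protein. Capitals mark the element. Vgf is at chr12:25277021-25277270 (minus strand), Ucn at chr6:30957836-30958085 (plus strand), Hamp at chr1:95300272-95300521 (minus strand) and Pde6b at chr14:1511436-1511685 (minus strand).
Vgf: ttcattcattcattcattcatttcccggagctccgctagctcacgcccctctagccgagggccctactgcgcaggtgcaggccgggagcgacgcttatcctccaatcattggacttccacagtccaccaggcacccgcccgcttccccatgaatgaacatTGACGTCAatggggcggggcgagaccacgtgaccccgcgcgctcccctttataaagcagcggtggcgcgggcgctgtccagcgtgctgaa
Ucn: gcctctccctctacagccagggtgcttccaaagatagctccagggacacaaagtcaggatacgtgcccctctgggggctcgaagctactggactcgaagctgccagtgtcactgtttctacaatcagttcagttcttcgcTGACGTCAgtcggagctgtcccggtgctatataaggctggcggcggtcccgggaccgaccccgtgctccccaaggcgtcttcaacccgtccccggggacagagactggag
Hamp: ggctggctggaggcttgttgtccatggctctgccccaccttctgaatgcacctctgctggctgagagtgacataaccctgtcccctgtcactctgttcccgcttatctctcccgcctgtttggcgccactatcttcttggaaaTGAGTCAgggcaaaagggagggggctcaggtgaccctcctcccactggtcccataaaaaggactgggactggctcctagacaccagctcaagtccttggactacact
Pde6b: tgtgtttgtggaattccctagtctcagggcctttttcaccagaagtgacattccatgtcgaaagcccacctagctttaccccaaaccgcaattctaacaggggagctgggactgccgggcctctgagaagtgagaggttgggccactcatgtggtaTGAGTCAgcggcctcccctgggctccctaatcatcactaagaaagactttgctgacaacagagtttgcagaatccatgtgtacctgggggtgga
The element begins 90 bases before the start of Vgf, 110 before Ucn, 107 before Hamp and 94 before Pde6b. The table held a promoter for 11733 of the 14217 genes. Of these 310 had the cyclic AMP response element (2.64%) and 406 the AP-1 element (3.46%), both strands searched. Among the 75 called-higher genes with a promoter, 4 had the cyclic AMP response element (5.33%: Il6, Pdcl3, Ucn and Vgf) and 6 the AP-1 element (8.0%: Def8, Hamp, Mmp3, Pde6b, Srxn1 and Tnfaip6). A match describes the letters of this window and is no measure of binding.

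The best known injury peptides Vip, Gal and Npy had larger differences and did not pass in the 16-array fit. Vip read 4.62, 6.37 and 4.76 in sham and 11.29, 11.30 and 10.93 in SNI, a difference of 5.92 (SE 1.56, adjusted p = 0.198). Galanin (Gal) read 9.52, 9.63 and 8.89 against 12.93, 13.65 and 13.64, a difference of 4.06 (SE 1.00, adjusted p = 0.162). Npy read 10.59, 9.41 and 9.11 against 13.67, 14.33 and 14.29, a difference of 4.39 (SE 1.16, adjusted p = 0.199). Each of these genes was apart between the groups by more than 3 units. The fit pools the spread over all groups, and the young arrays were uneven for these genes. Vip, for example, was 10.03, 11.52 and 8.09 in the 3 young sham arrays. With the 9 adult arrays alone the same differences had adjusted p of 0.00171 for Vip, 0.000632 for Gal and 0.0478 for Npy, and 7 of the 14 peptides were called. In that fit 136 of the 14217 genes were called higher by their brightest Affy_ID (0.957%) and 16 lower (0.113%).

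Other genes of the injured neuron were of the same kind. Atf3, the transcription factor most used as a marker of cut sensory neurons, read 5.91, 7.27 and 7.12 in sham and 11.60, 11.81 and 11.72 in SNI, a difference of 4.94 (SE 1.05, adjusted p = 0.0868, and 0.00209 with the 9 adult arrays). Sprr1a, a growth-associated protein of regenerating axons, read 2.76, 2.80 and 2.31 against 9.58, 9.97 and 9.89, a difference of 7.19 (SE 1.73, adjusted p = 0.145, and 7.48e-06 with the 9 adult arrays). Arg1, the enzyme that turns arginine into ornithine, read 2.91, 3.38 and 2.70 against 8.74, 8.71 and 9.23, a difference of 5.90 (SE 1.35, adjusted p = 0.116, and 4.18e-05 with the 9 adult arrays). Sprr1a in the young sham arrays was 8.24, 9.92 and 3.50, a range wider than 6 units within that group. Across the array, 117 Affy_IDs were called in both fits, 127 with the adult arrays alone and 32 with all 16 alone. The median within-group SD of the 127 was 0.716 in the young groups and 0.192 in the adult groups, whereas over all Affy_IDs it was 0.198 and 0.185.

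**Figure D3:**
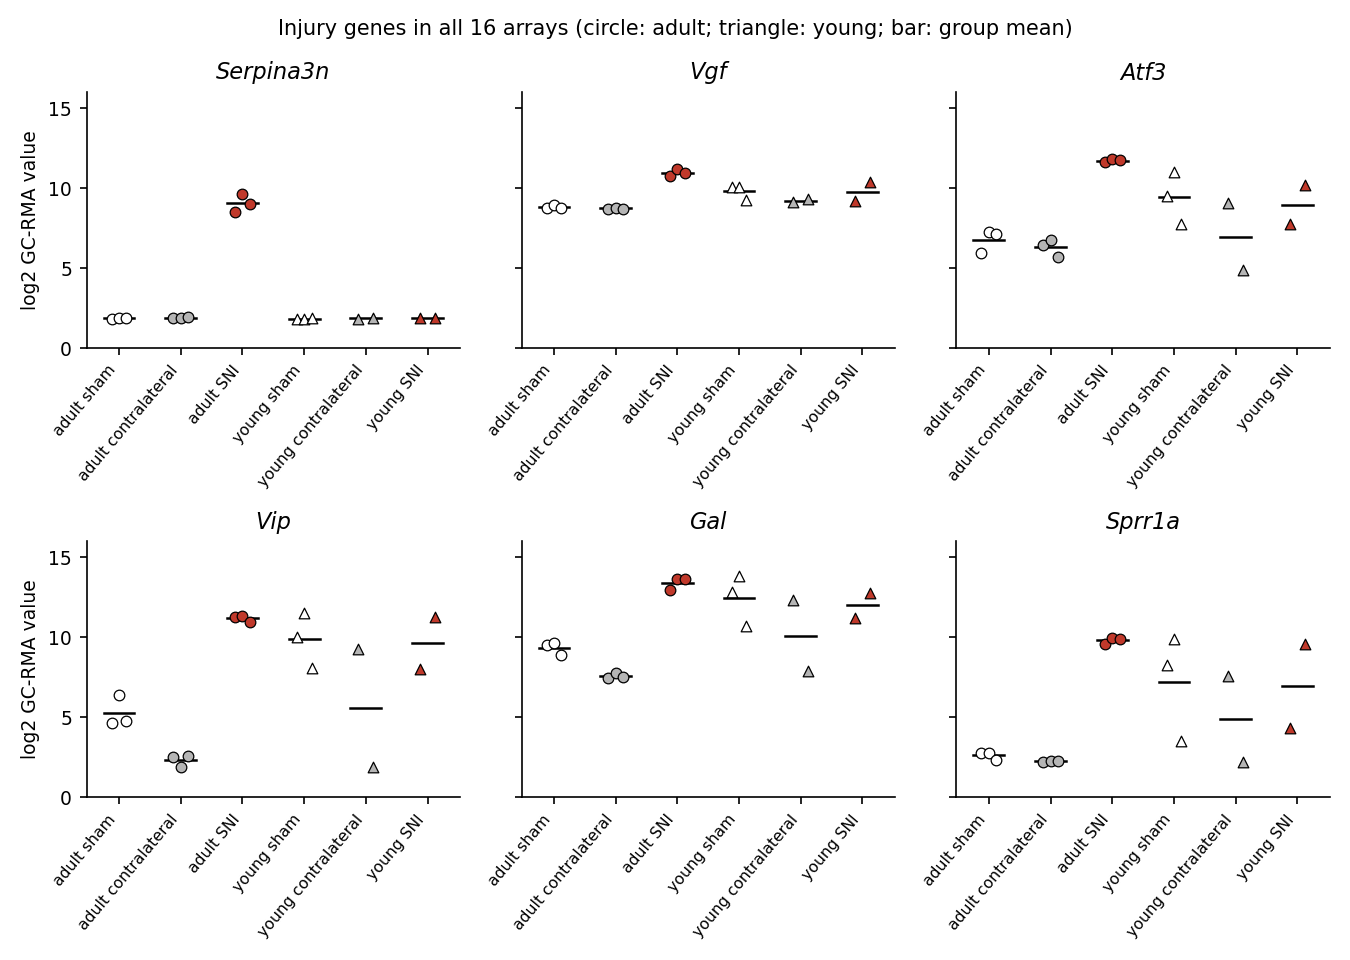
Log2 values of Serpina3n, Vgf, Atf3, Vip, Gal and Sprr1a in all 16 arrays (vertical axis), each point an array, each column a group and each bar a group mean. In adult DRG the 3 SNI arrays lie above the 3 sham arrays for each gene, and for Sprr1a, Vip, Gal and Atf3 the young sham arrays spread over several log2 units.

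Of 20 transcription factors of nerve injury, 3 were called higher, none lower, and 18 were above 0, with a median difference of 0.57. Over all 14217 genes, 6007 were above 0. Sox11, a factor of immature and regrowing neurons, read 2.94, 2.97 and 2.57 in sham and 6.96, 7.12 and 6.39 in SNI, 4.00 higher (SE 0.58, adjusted p = 0.0162). Crem is given above, and Tgif1, a repressor in TGF-beta signalling, rose by 0.48 (adjusted p = 0.00816). Jun differed by 1.78 and Smad1 by 1.12 with the groups apart, at adjusted p of 0.179 and 0.0776. Of 24 axon growth proteins measured, 4 were called higher, 22 were above 0, and the median was 0.48. Gap43, the growth cone protein, was already high in sham at 12.52, 12.95 and 12.79 and read 13.93, 14.04 and 13.93 in SNI, 1.21 higher (SE 0.16, adjusted p = 0.0103). Its other Affy_ID differed by -0.17. Flrt3, an adhesion protein of outgrowing axons, rose by 3.07 (adjusted p = 0.0365), Ecel1, an endopeptidase induced in damaged neurons, by 3.75 (adjusted p = 0.0244) and the tubulin Tubb2b by 0.89 (adjusted p = 0.0248). Sox11, Flrt3, Ecel1 and Tubb2b each lost the call without sham 1, sham 2 or SNI 2 (adjusted p up to 0.154), and Gap43 without SNI 2 (adjusted p = 0.0563). Flrt3 and Ecel1 also lost it without sham 3 or SNI 3, and Tubb2b without SNI 3. With the 6 arrays alone Tgif1 and Tubb2b did not pass (adjusted p = 0.13 and 0.15).

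**Figure D4:**
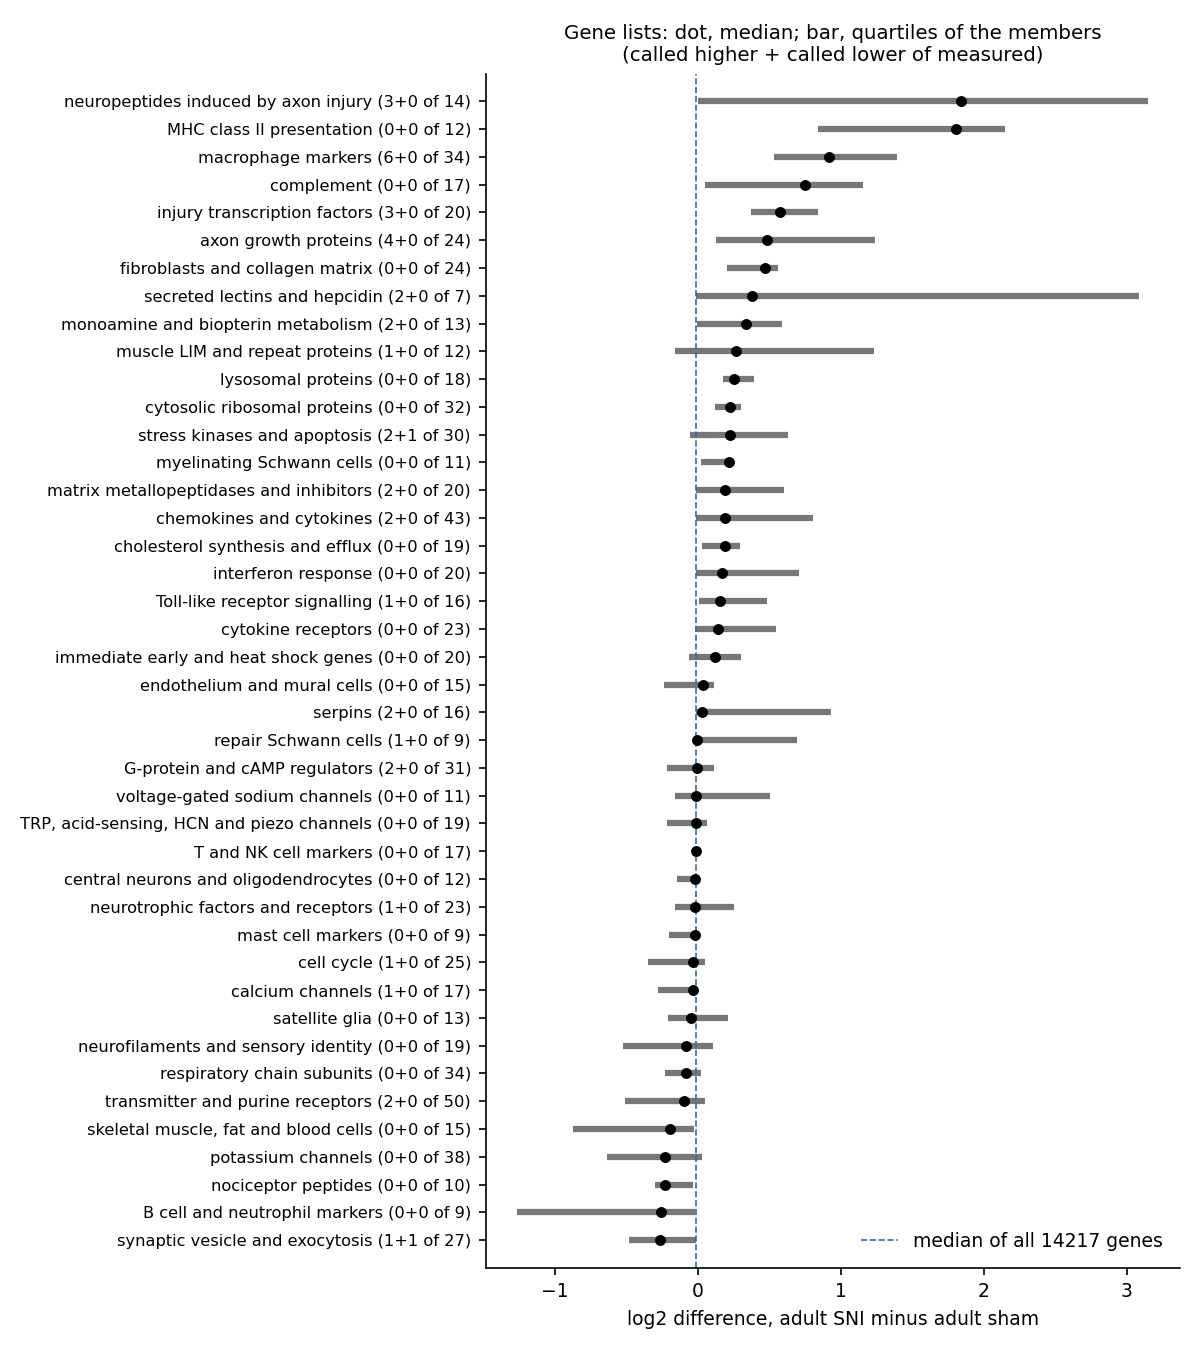
Log2 difference of SNI minus sham for each gene list other than the genes taken to quantitative PCR, with the median of its members as a dot, their quartiles as a bar, the median of all genes as a dashed line, and the members called of those measured beside each name. The neuropeptide (1.84), MHC class II (1.80) and macrophage (0.92) medians lie highest, and those of synaptic vesicle genes (-0.27) and of B cell and neutrophil markers (-0.26) lowest.

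Macrophage genes leaned upward together. Of 34 measured, 6 were called higher, 33 were above 0, and 19 had all SNI arrays above all sham arrays, with a median of 0.92. Over all 14217 genes, 6007 were above 0 and 814 were apart in that direction. The mean of the list over its genes was between 5.14 and 5.66 in the sham arrays and between 6.32 and 6.84 in the SNI arrays. Clec7a, the receptor dectin-1, read 3.36, 3.62 and 4.47 in sham and 7.87, 8.24 and 8.37 in SNI, 4.34 higher (SE 0.45, adjusted p = 0.0027). Ms4a6a, a membrane protein of macrophages, read 2.29, 2.37 and 2.33 against 5.77, 5.05 and 5.66, 3.16 higher (SE 0.18, adjusted p = 2e-05). The receptors for antibody Fcgr3a and Fcgr2b rose by 3.13 and 2.92, the lectin receptor Clec4a by 1.37 and Ms4a7 by 0.98, with adjusted p of 0.00183 to 0.0244. Fcgr2b and Ms4a7 lost the call without sham 1, sham 2 or sham 3, and Fcgr2b without SNI 2 or SNI 3 as well (adjusted p up to 0.12 and 0.0845). With the 6 arrays alone Clec7a, Ms4a6a and Fcgr2b passed, and Fcgr3a, Clec4a and Ms4a7 did not (adjusted p = 0.17, 0.117 and 0.323). In pooled tissue, more cells of a type and more RNA per cell cannot be told apart.

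The markers most used to count macrophages did not pass. Aif1, the protein Iba1, read 7.98, 7.55 and 8.59 in sham and 9.36, 9.84 and 9.71 in SNI, a difference of 1.60 (SE 0.48, adjusted p = 0.30). The lysosomal protein Cd68 differed by 1.75, the mannose receptor Mrc1 by 1.40 and the receptor for Csf1, Csf1r, by 1.31, all with the groups apart. Itgam and Cd163 stayed below 3 in all 6 arrays and their groups overlapped. Of 12 genes of MHC class II presentation none was called (9 had an unadjusted p under 0.05, all upward), with a median difference of 1.80, and 7 were called with the 9 adult arrays. RT1-Bb, a class II chain, read 5.05, 4.6 and 6.91 against 8.59, 10.05 and 10.09, a difference of 4.06 (SE 1.02, adjusted p = 0.173). Cd74, the invariant chain, read 10.63, 10.25 and 10.90 against 12.06, 12.97 and 13.30, a difference of 2.18 (SE 0.55, adjusted p = 0.171). Adjusted p of RT1-Bb and Cd74 was 0.0471 and 0.0306 with the 9 adult arrays, and 0.249 and 0.1945 with the 6 arrays alone. Complement gave no call among 17 genes, with 5 higher at an unadjusted p under 0.05 and a median of 0.75. C1qb differed by 2.35 and C3 by 1.85, at adjusted p of 0.38 and 0.446.

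Soluble signals moved in few members. Of 43 chemokines and cytokines, 2 were called higher by their brightest Affy_ID, with a median of 0.19. Besides Tslp this was Il6, at 2.32, 2.41 and 2.36 in sham and 5.12, 5.67 and 3.87 in SNI, 2.52 higher (SE 0.32, adjusted p = 0.00816), with SNI 3 the lowest SNI pool. With the 6 arrays alone Il6 did not pass (adjusted p = 0.248), nor did Tlr4, below (adjusted p = 0.289). The monocyte attractant Ccl2 was high in both groups, from 9.69 to 9.97 in sham and from 10.88 to 11.5 in SNI. The difference was 1.27 (adjusted p = 0.0528, 0.0334 with the 9 adult arrays and 0.143 with the 6 arrays alone). Of 16 genes of Toll-like receptor signalling 1 was called, and none with the 9 adult arrays. Tlr4, the receptor for endotoxin, rose by 0.84 (adjusted p = 0.0133) from sham values of 2.07, 2.15 and 2.12, below the lower quartile of their arrays. It lost the call without sham 1, sham 2 or SNI 2 (adjusted p up to 0.0698). None of 23 cytokine receptors was called (5 at an unadjusted p under 0.05, all upward), nor of 20 interferon response genes (3, all upward). Over all 14217 genes, 822 were higher and 532 lower at that unadjusted p. Of 17 T and NK cell markers none was called, and 2 were higher at an unadjusted p under 0.05. Gzmb, a protease of cytotoxic granules, read 3.31, 3.33 and 3.17 in sham and 5.82, 3.88 and 4.76 in SNI (difference 1.55, adjusted p = 0.545), and Cd4 differed by 1.15 (adjusted p = 0.151), both with the groups apart. The T cell genes Cd3d, Cd3g and Cd2 were between 2.04 and 2.78 in all 6 arrays and Cd3e between 3.33 and 4.01, with overlapping groups.

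Of the matrix metallopeptidases and their inhibitors, 2 of 20 were called. The membrane-anchored Mmp16 read 5.85, 5.41 and 5.66 in sham and 8.07, 8.14 and 8.11 in SNI, 2.47 higher (SE 0.31, adjusted p = 0.00816, and 0.0502 without sham 2). Stromelysin-1, Mmp3, read 2.00, 2.07 and 2.03 against 3.26, 5.08 and 3.40, 1.88 higher (SE 0.35, adjusted p = 0.0463), and it did not pass with the 9 adult arrays (adjusted p = 0.173) or without sham 1, sham 2, sham 3 or SNI 3 (adjusted p up to 0.168), nor with the 6 arrays alone (adjusted p = 0.484). Of 13 genes of monoamine and biopterin metabolism 2 were called. Maoa, the enzyme that oxidises serotonin and noradrenaline, read 10.77, 10.62 and 10.93 in sham and 11.97, 12.06 and 12.07 in SNI, 1.26 higher (SE 0.13, adjusted p = 0.0027). Gch1, the first enzyme of biopterin synthesis, rose by 2.86 (adjusted p = 0.0431) and lost the call whichever array was left out. Among the other calls were Tnfaip6, a hyaluronan-binding protein of inflammation, which rose by 2.43, Calb1, a calcium-binding protein of neurons, by 2.42, the kinase Tnik by up to 2.35, the transcription factor Cebpa by 2.31, and Abca1, a cholesterol exporter, by 2.00, with adjusted p of 0.00351 to 0.0319. Of these, Tnfaip6 kept the call whichever array was left out, Calb1 lost it with each, and the other 3 genes lost it without sham 2 or SNI 2 among others. With the 6 arrays alone Tnfaip6, Calb1 and Cebpa did not pass (adjusted p = 0.0706, 0.0562 and 0.148).

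Potassium channel and synaptic vesicle genes had medians below that of all genes (-0.01), with few calls. Of 38 potassium channel genes, none was called by its brightest Affy_ID (1 higher and 7 lower at an unadjusted p under 0.05), 10 were above 0, and 12 had every SNI array below every sham array, as did 816 of all 14217 genes. Their median difference was -0.23, and it stayed between -0.34 and -0.17 over the alternatives run. Kcnj11 is given above. Kcnc2, a fast delayed rectifier, read 9.11, 9.03 and 9.11 in sham and 8.92, 8.00 and 7.31 in SNI, a difference of -1.01 (SE 0.34, adjusted p = 0.417), and Kcnv1, a silent subunit, differed by -1.10 (adjusted p = 0.818). In both genes the SNI pools were spread over 1.5 units or more while the sham pools lay within 0.15. Of 27 genes of synaptic vesicles and exocytosis, 1 was called higher and 1 lower, 7 were above 0, and the median was -0.27. The called genes were Lin7b, above, and Stx1a, a SNARE protein of the presynaptic membrane, at 7.45, 7.67 and 7.51 in sham and 8.35, 8.37 and 8.43 in SNI, 0.84 higher (SE 0.10, adjusted p = 0.00816).

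Of 50 receptors for transmitters and purines 2 were called, both higher. The list had a median of -0.10, and 14 were above 0, as were 6007 of all 14217 genes. At an unadjusted p under 0.05, 3 were higher and 5 lower. Every SNI array lay below every sham array in 12 and above in 4, against 816 and 814 of all genes. With the 9 adult arrays 1 was called higher and 1 lower. Gabra5, a subunit of the GABA-A receptor, read 6.86, 7.71 and 7.30 in sham and 9.56, 9.46 and 9.44 in SNI, 2.20 higher (SE 0.40, adjusted p = 0.0384). P2ry14, a receptor for UDP-glucose, rose by 1.02 (adjusted p = 0.0244), and did not pass without sham 1, sham 2 or SNI 3 (adjusted p up to 0.109) or with the 6 arrays alone (adjusted p = 0.195). The alpha-2C adrenergic receptor Adra2c, at 8.04, 7.34 and 7.27 against 6.36, 6.37 and 5.06, differed by -1.62 (SE 0.48, adjusted p = 0.294), with the groups apart. Of 17 calcium channel genes 1 was called: Cacna2d1, the subunit that gabapentin binds, read 9.61, 10.03 and 9.80 in sham and 11.49, 12.14 and 11.37 in SNI, 1.85 higher (SE 0.34, adjusted p = 0.0422). The calls of Gabra5 and Cacna2d1 were lost whichever array was left out, and that of Cacna2d1 with the 6 arrays alone (adjusted p = 0.0988). None of 11 sodium channel genes was called by its brightest Affy_ID (2 higher at an unadjusted p under 0.05), where Scn3a, a channel of the embryonic nervous system, differed by 2.51 (adjusted p = 0.234), nor of 19 TRP, acid-sensing, HCN and piezo channels (1 lower at an unadjusted p under 0.05). The medians of the sodium, calcium and TRP lists were -0.01, -0.03 and -0.01. Gfra1, a co-receptor for GDNF, was the 1 call of 23 neurotrophic factors and receptors and rose by 1.44 (adjusted p = 0.0171, and up to 0.08 without sham 1, sham 2, SNI 2 or SNI 3).

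Peptides and identity genes of uninjured sensory neurons gave no call. None of 10 nociceptor peptides and none of 19 neurofilament and sensory identity genes was called or had an unadjusted p under 0.05, with medians of -0.23 and -0.08. Every SNI array lay below every sham array in 2 of the peptides and 4 of the identity genes, and above in 1 and 0. Over all 14217 genes 816 were apart downward and 814 upward. Somatostatin, Sst, read 9.41, 9.23 and 9.53 in sham and 8.61, 9.2 and 8.63 in SNI, a difference of -0.58 (SE 0.27, adjusted p = 0.703). Of the 31 regulators of G-proteins and cyclic AMP 2 were called higher, and of the 30 genes of stress kinases and apoptosis 2 higher and 1 lower. The stress gene Gadd45a, at 9.78, 9.85 and 9.76 against 12.08, 12.39 and 12.21, differed by 2.43 (SE 0.47, adjusted p = 0.0574, and 5.17e-05 with the 9 adult arrays).

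Other cells and common cell functions gave few calls. None of 13 satellite glia genes, 11 genes of myelinating Schwann cells, 24 genes of fibroblasts and collagen matrix, 32 ribosomal proteins and 34 respiratory chain subunits was called. At an unadjusted p under 0.05 there were none in the first 3 of these lists, 1 higher among the ribosomal proteins and 2 lower among the respiratory chain subunits. Of the fibroblast genes 23 were above 0 with a median of 0.47, and all 24 overlapped between the groups. Decorin, Dcn, read 12.54, 12.28 and 13.28 in sham and 12.91, 13.39 and 13.52 in SNI. Of the ribosomal proteins 30 were above 0 with a median of 0.22, between 0.07 and 0.35 over the alternatives run. Over all 14217 genes 6007 were above 0, and the share rose with the level. Among all Affy_IDs it was 52.45% where the mean log2 value was 9 to 11, with a median of 0.02. Above 11 it was 66.73% with a median of 0.09, and the ribosomal list had means of 11.91 to 12.27 in sham. The part of level in these counts was not tested. The median of the Schwann cell list ran from -0.14 to 0.44 over the alternatives and so had no settled direction. Of the 18 lysosomal proteins 17 were above 0 and none was called (4 higher at an unadjusted p under 0.05), and of 19 genes of cholesterol synthesis and efflux 15 were above 0 and none was called (2 higher at an unadjusted p under 0.05). Among 25 cell cycle genes 1 was called, the kinesin Kif22, which rose by 2.29 (adjusted p = 0.0197, and 0.0596 with the 6 arrays alone). Kif22 lost the call without sham 1, sham 2, sham 3, SNI 2 or SNI 3 (adjusted p up to 0.091). Top2a, a gene of dividing cells, differed by -0.75 with overlapping groups. The 1 call of 9 repair Schwann cell genes was Gap43, which neurons also express. None of 20 immediate early and heat shock genes, 15 genes of endothelium and mural cells, 9 mast cell markers and 12 genes of central neurons and oligodendrocytes was called, with 1 member at an unadjusted p under 0.05 in each of the first 3 (lower in endothelium and mural cells, higher in the other 2 lists) and none in the last.

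Of the 16 genes that the study took on to quantitative PCR, which were picked from these same arrays and so are no independent evidence of direction, 15 were analysed here. By their brightest Affy_ID 9 were called higher (Serpina3n, Serpinb2, Il6, Mmp3, Mmp16, Maoa, Crem, P2ry14 and Tlr4) and Map2k6 lower. Csf1 was called at 2 other Affy_IDs. C3, Ccl2, Itpkc and Clic1 did not pass, with differences of 0.70 to 1.85 and adjusted p of 0.0519 to 0.446.

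The largest negative differences on the array were not called, and most of the 15 genes with the largest are genes of muscle fibres. Of 39 Affy_IDs with a log2 difference under -2, none passed the adjusted threshold, the groups were apart in 7 (17.9%), and sham 2 was the lowest sham pool by more than 1 unit in 34. The 3 sham values of the 39 spanned a median of 5.48 and the SNI values one of 0.64. Mmp13, a collagenase, read 9.28, 3.14 and 8.75 in sham and 3.25, 2.71 and 2.81 in SNI, a difference of -4.13 (SE 1.95, adjusted p = 0.715). Myl2, a myosin light chain of slow muscle, read 10.01, 3.36 and 7.14 against 2.89, 3.02 and 3.36, a difference of -3.75 (SE 1.92, adjusted p = 0.787), and Actn2, an actinin of the muscle Z-disc, 7.94, 2.47 and 7.90 against 2.42, 2.27 and 2.43, a difference of -3.73 (SE 1.76, adjusted p = 0.714). In each of these genes sham 2 lay with the SNI pools and away from the other sham pools. The muscle, fat and blood list had means of 5.14 to 10.25 in the sham arrays and of 6.84 to 8.70 in the SNI arrays, and the myosin Myh4 read 8.15, 4.63 and 13.39 against 7.83, 7.32 and 8.30. Adipoq and Plin1, genes of fat cells, were at 2.21 or less in all 6. None of 9 B cell and neutrophil markers was above 0, and none was called or had an unadjusted p under 0.05. S100a9, a calcium-binding protein of neutrophils, read 11.20, 8.43 and 11.42 in sham and 9.19, 8.38 and 8.53 in SNI, with sham 2 again beside the SNI pools. The part of muscle RNA in the differences of other genes was not tested.

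**Figure D5:**
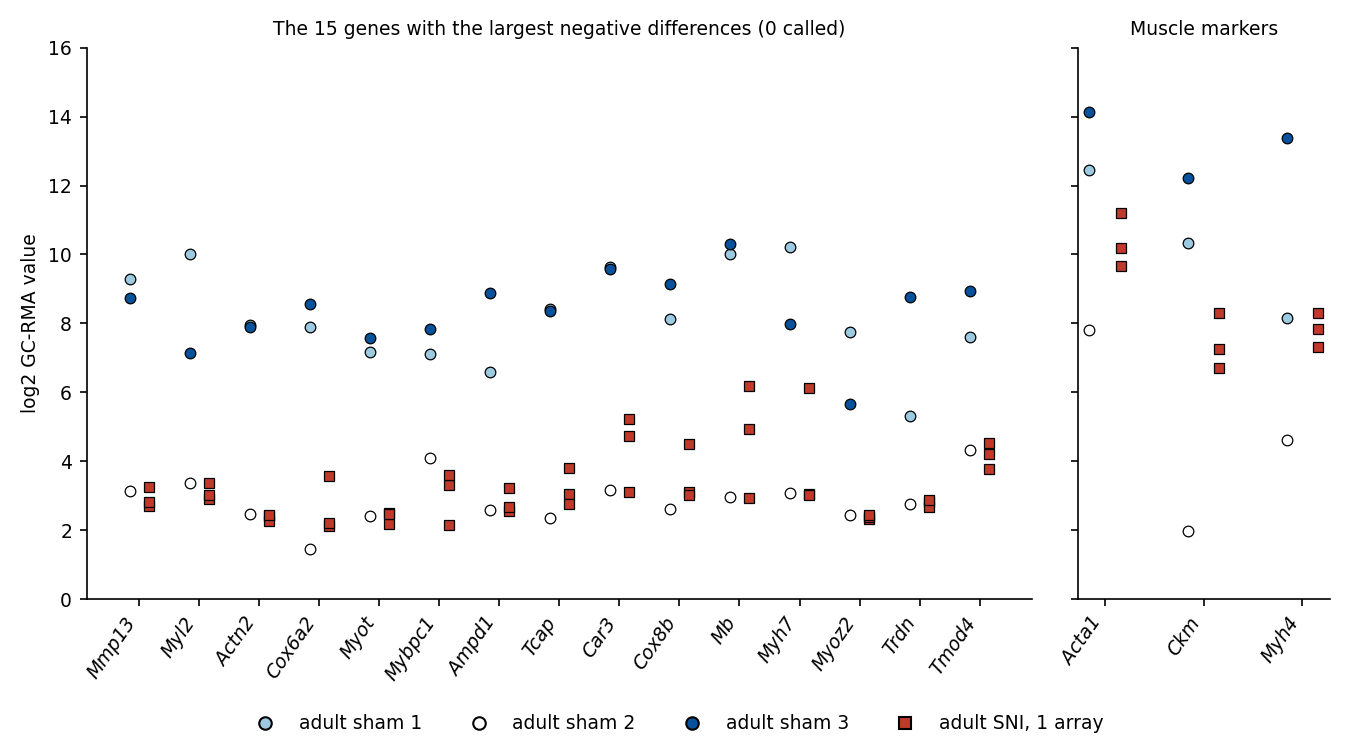
Log2 value in each of the 3 sham and the 3 SNI arrays (points) for the 15 genes with the largest negative log2 differences of SNI minus sham and for 3 muscle markers. In the 15 genes sham 2 lies near the SNI arrays, and sham 1 and sham 3 lie above it.

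The response to SNI was also set against that of young rats, taken as young SNI minus young sham, in the same limma fit. The adult and the young response differed at 24 Affy_IDs (0.0773%), and 19 of these had a call in the adult comparison too. Serpina3n was among them: its log2 value differed by 7.19 in adult and by 0.02 in young DRG.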

How the data were processed

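Expression in rat L4 and L5 DRG was measured on 16 arrays. Per the labels and the study's methods, the authors hybridised each pool to 1 array, removed some young arrays as outliers and applied GC-RMA, and the deposited values are log2 expression values, here with 2 decimals. GC-RMA corrects background by probe sequence, so low values are compressed toward a floor. Of these tools no version is given in the sources used. Groups came from the labels.

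The log2 values were used as deposited, without 57 control Affy_IDs. A model with 1 mean per group was fitted to all 16 arrays with limma 3.58.1 in R 4.3.3 (lmFit, eBayes), the contrast adult SNI minus adult sham was tested, and p-values were adjusted by Benjamini-Hochberg over 31042 Affy_IDs at 0.05. All adjusted p are from this fit unless another is named. SE is the standard error from limma's moderated variance. Symbols came from GEO's platform annotation: 20826 Affy_IDs had 1 gene, 436 several and 9780 none. In gene lists, a gene was represented by its brightest Affy_ID, that with the highest mean log2 value. The members and lists were chosen with earlier results of these data known. Named genes were the 15 largest rises, all falls called (up to 15), up to 5 called and 3 uncalled members of each list, the genes the study took to quantitative PCR, and cell type markers. Lists were described by counts and medians without a set test.

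Alternatives were fits to the 6 or the 9 adult arrays or without young SNI 2, other variance priors, a filter on low values (above 4 in at least 2 arrays), array weights, quantile normalization, median centring, a replicate block, and leaving out each array. The test was tried on simulated data first. No reads were counted, so the number of arrays limits the precision, and nothing shows that pools came from separate surgeries. Differences in the response by age were tested as a contrast in the same fit. Promoters were read from RefSeq (GRCr8) with Python 3.11.15. The authors' own comparisons were not used.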

Additional observations from a re-analysis of the deposited data

Results flagged for a closer look

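The adult response (SNI minus sham, log2) was set against the same difference in young rats (young SNI minus young sham) by a contrast in the 16-array limma fit. It differed at 24 Affy_IDs (0.0773% of those tested; 1948 at an unadjusted p under 0.05), in 19 of which the adult difference was the more positive, and those listed here are the named Affy_IDs among them. The protease inhibitors Serpina3n and Serpinb2 differed between the ages by 7.17 (adjusted p = 1.53e-06) and 4.17 (adjusted p = 0.0103). In young rats their own differences were 0.02 and 0.03. The iron hormone Hamp differed by 5.49 (adjusted p = 0.0122), and the macrophage genes Ms4a6a and Clec4a by 3.40 (adjusted p = 0.000715) and 1.39 (adjusted p = 0.0363). The inflammation-induced Tnfaip6 differed by 2.71 (adjusted p = 0.0424), and Pdcl3, a phosducin-like protein, by 2.35 (adjusted p = 0.0109). The PACAP precursor Adcyap1 did so at both of its Affy_IDs, by 2.31 and 2.29 (adjusted p = 0.0219 and 0.0109). Maoa differed by 1.5 (adjusted p = 0.0227), Pdlim1, a LIM domain protein of the cytoskeleton, by 1.94 (adjusted p = 0.045) and the SNARE protein Stx1a by 1.17 (adjusted p = 0.0252). Ypel1 and Tceal9 differed by 2.00 (adjusted p = 0.038) and 0.89 (adjusted p = 0.0363).

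The young SNI group held 2 arrays. Without young SNI 2, which had values for the oligodendrocyte gene Mog and the central neuron gene Slc12a5 far above those of every adult array, 88 Affy_IDs differed, 20 of the 24 among them. Pdlim1 then had a difference of 1.75 at an adjusted p of 0.0784. Young and adult rats also differed in the number of animals pooled, which cannot be told apart from age here. Over the 138 Affy_IDs called higher in adult SNI, the young difference had a median of -0.18 and was above 0 in 41, and without young SNI 2 these were -0.30 and 18. The fit that called them included the young arrays, so Affy_IDs uneven in young DRG passed less readily. The median SD within young groups was 0.293 for its calls and 0.716 for those of the 9 adult arrays only. The size of these young differences is thus partly set by the choice of Affy_IDs. Some of the genes called higher in adult SNI were already high in young sham. Tslp read 8.45, 9.77 and 6.67 there and 6.97 and 9.11 in young SNI, against 3.60, 4.29 and 3.93 in adult sham. Serpina3n was low in young sham, at 1.80, 1.83 and 1.88. A small or negative young difference is therefore no measure of the level in young SNI. The source of the high young sham values was not tested. Groups of 3 arrays were not tested for single arrays that stand apart.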

How the results depend on the processing

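The count of 149 calls became 94 with the 6 arrays compared, 244 with the 9 adult arrays and 224 without young SNI 2. It was 162 with an intensity trend in the variance prior, 139 with a robust prior, 206 with the filter on low values (18540 Affy_IDs tested), 206 with array weights, 136 after quantile normalization and 207 after median centring. Leaving out 1 array gave 35 to 288 calls, with a median difference over all Affy_IDs of -0.03 to 0.005. The median of -0.017 became 0.027 after median centring. The response difference by age gave 88 calls in place of 24 without young SNI 2. With the replicate number as a block, 101 Affy_IDs were called (88 of them among the 149) and 19 for the response difference. Same-numbered sham and SNI arrays deviated from their group means with r of -0.041, 0.132 and 0.20, and differently numbered ones with r of -0.207 to 0.091. Same-numbered sham and SNI arrays hold different animals. Whether they shared a day of surgery or of processing is not given by the labels and cannot be told from these values. All 149 kept their direction in every alternative that tested them, and none of the named results reversed. Of the 66 calls named by rule or above 2 in difference, 9 passed in every alternative run on them: Serpina3n, Ankrd1, Clec7a, C9h6orf141, Ms4a6a, Vgf, Ucn, Adcyap1 and Maoa (Ucn did not pass the filter and was not tested there). The cause of the other changes was not tested. With 3 pools a group, absence of a call shows no absence of a difference, and values near the floor of GC-RMA understate or blur fold changes.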
